A study of Capsicum chinense with 22 samples.

Results

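The genes described here carry names of families known for the cuticle, the waxy skin of the fruit, and for lipid transfer. They were chosen by name alone: every gene of the deposited table whose annotated name contained lipid-transfer protein, GDSL esterase, 3-ketoacyl-CoA synthase, glycerol-3-phosphate acyltransferase (also written with 2-O-), HOTHEAD, fatty acyl-CoA reductase or ECERIFERUM. The rule took 95 of 16922 genes and used no measured value, but it was set with earlier results of these data known. By family these were 27 GDSL esterases, 25 lipid-transfer proteins (LTPs), 13 3-ketoacyl-CoA synthases (KCSs), 10 ECERIFERUM genes (CERs), 7 glycerol-3-phosphate acyltransferases (GPATs), 5 HOTHEAD genes and 3 fatty acyl-CoA reductases (FARs). The text search also caught 5 1-acyl-sn-glycerol-3-phosphate acyltransferases (LPAATs), whose name ends in the same words, and a glycolipid transfer protein counted among the LTPs. A gene is named after a relative in another plant, mostly Arabidopsis, so a name ending in -like rests on sequence annotation and not on a tested function in pepper.

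The plant cuticle is a polyester of hydroxylated fatty acids, cutin, filled and covered with waxes. Epidermal cells make it while an organ expands, and in fruit it limits water loss, cracking and infection. In Arabidopsis and tomato, GPATs join hydroxylated fatty acids to glycerol, GDSL esterases of the cutin synthase type polymerise the products in the cell wall, KCSs lengthen fatty acids for wax, CER1 and CER3 turn them into alkanes, FARs turn them into alcohols, and LTPs bind lipids outside the cell.

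The pericarp, the fruit wall, of 4 Capsicum chinense accessions was sampled at 20 days after anthesis (DAA), when fruits were immature, and at 60 DAA, when they were mature. Hab and Biq have red fruits and A101 and A18 yellow fruits, while Hab and A101 are pungent and Biq and A18 are not. Plants grew untreated in a greenhouse. The authors describe a replicate as tissue of at least 3 fruits of the same plant, but elsewhere give 3 fruits per accession and stage for RNA-seq. Of the 8 groups, 6 had 3 libraries, while immature A18 and mature Hab had 2 each. With 4 accessions, a difference between colours or between pungency classes holds for these accessions only. Reads were counted on a reference of another species, the red-fruited Capsicum annuum, which the authors name as a potential bias for colour. The part of read mapping in any difference between accessions, such as a gene low in Biq alone, was not tested.

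Expression was given as variance-stabilised values, which run close to log2 of normalised counts. They were centred on each gene's mean over the 22 libraries, so 0 is that mean and levels cannot be compared between genes. A difference of 1 is close to a doubling for well-counted genes and more than a doubling for rarely counted ones. Read totals cannot be had from such values, so the depth behind each library is unknown here. A gene was called where its difference between groups was at least 1 and the adjusted p was under 0.05 (limma over all 16922 genes, Benjamini-Hochberg). The nearest library lay in the same group for 22 of 22 libraries over all genes and for 20 of 22 over the 95 genes. In the labelled tissue, 21 of 25 chlorophyll a-b binding protein genes were lower at 60 DAA, 0 were higher, and capsanthin/capsorubin synthase (LOC107875664), the ripe fruit carotenoid enzyme, rose by 11.82 ± 0.17 (SE, adjusted p = 2.02e-21). No gene matched the placenta list, and 1 of 3 seed storage genes rose on average. Of 7 phloem genes 4 were lower at 60 DAA and 0 higher, with a median change of -1.38.

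Most cuticle genes were lower in mature fruit. Averaged over the 4 accessions, 64 of the 95 genes fell between 20 and 60 DAA, 13 rose and 18 were not called. Over all genes tested, 21.5% fell and 13.2% rose. The median change of the 95 genes was -1.93, against -0.08 over all genes, and single genes ran from -9.02 to 7.22. The fall recurred in each accession: 65 genes fell in Hab (26% of all genes fell there), 63 in A101 (19.7%), 60 in Biq (23.3%) and 63 in A18 (20.6%). The rises were near the share over all genes in Biq, with 15 genes (15.5% of all genes rose there), in A101 with 12 (10.6%) and in A18 with 9 (11.4%). In Hab 11 genes rose, a smaller share than over all genes (18.7%). In all 4 accessions, 56 of the 95 genes fell (58.9%, against 13.5% of all genes) and 4 rose (4.21%, against 6.7%), while 10 were called in no accession (10.5%, against 43.9%). For 61 genes every 60 DAA library lay below every 20 DAA library (64.2%, against 21.6% of all genes), and for 10 every 60 DAA library lay above (10.5%, against 15.7%). In bulk pericarp, fewer epidermal cells and less RNA per epidermal cell cannot be told apart.

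**Figure D1:**
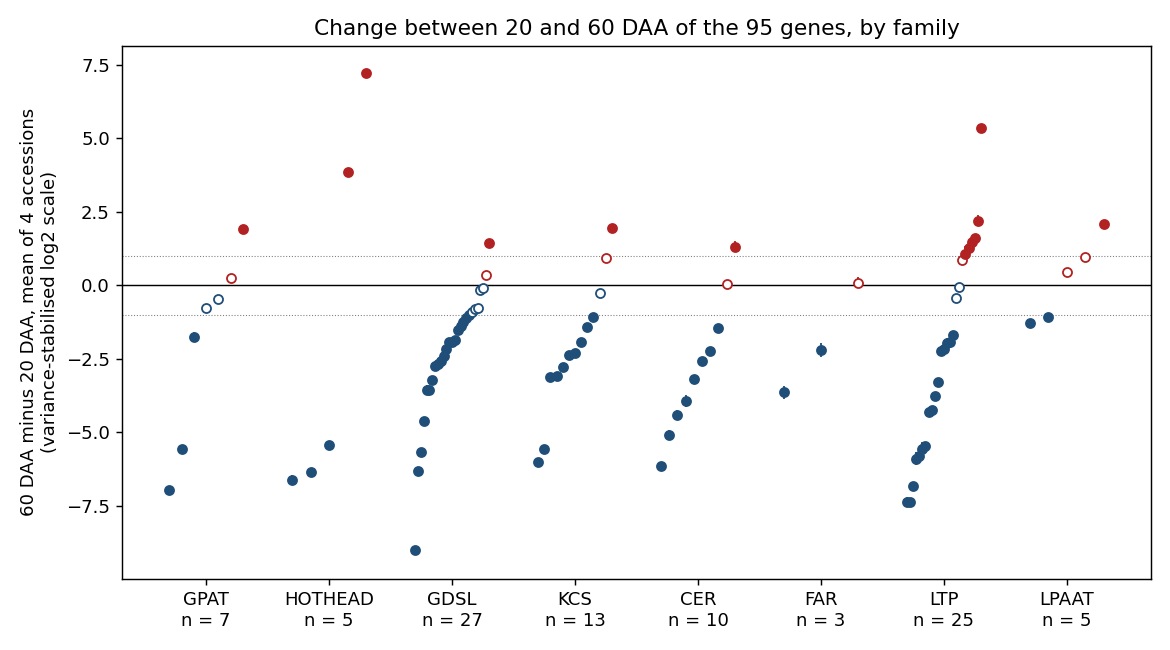
Change between 20 and 60 DAA of each of the 95 genes on the variance-stabilised log2 scale (vertical axis), by family (horizontal axis), with the mean of 4 accessions as a point and its SE as a bar, often smaller than the point. Blue points fell and red points rose, open points were not called, and dotted lines mark the minimum difference of 1. In every family but LPAAT and GPAT more than 1 in 2 genes are filled blue points, and the highest red points are HTH at 7.22, EARLI1 at 5.36 and a HOTHEAD-like gene at 3.84.

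Many of the falls reached the bottom of the scale. In 44 of the 95 genes (46.3%, against 7.62% of all genes) at least 3 libraries shared the gene's lowest value. For 36 of these genes all such libraries were 60 DAA libraries, and 35 of the 36 fell on average. A fall that ends at the lowest value is limited in size by the level at 20 DAA. In 3 genes all 11 libraries at 60 DAA were at the lowest value, so accessions differed in these falls only through their levels at 20 DAA.

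Of the 7 GPAT genes 3 fell, 1 rose and 3 were not called, and those named after cutin-type enzymes moved furthest. GPAT6 (LOC107842762), named after an enzyme needed for cutin in Arabidopsis flowers and tomato fruit, lay between 2.86 and 4.48 (median 3.46) in the 11 libraries at 20 DAA and between -4.09 and -2.71 (median -3.39) in the 11 at 60 DAA. The stages did not overlap, and GPAT6 fell by 6.97 ± 0.10 (SE, adjusted p = 2.57e-21), with changes from -6.15 in Hab to -8.22 in Biq. Glycerol-3-phosphate 2-O-acyltransferase 4 (LOC107839197), a second cutin-type enzyme, lay between 2.14 and 3.73 at 20 DAA and between -3.34 and -1.95 at 60 DAA. It fell by 5.58 ± 0.08 (adjusted p = 1.14e-21). GPATs that are not tied to cutin moved little. The chloroplast enzyme LOC107871044, which starts glycerolipid synthesis in plastids, changed by 0.23 ± 0.07 (adjusted p = 0.00784), and the GPAT3-like genes LOC107840627 and LOC107855326 changed by -0.76 ± 0.06 (adjusted p = 1.67e-10) and -0.47 ± 0.06 (adjusted p = 2.3e-07), all under the minimum difference.

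The GPAT6-like genes LOC107843463 and LOC107870623 differed between accessions, at opposite stages. At 20 DAA, LOC107843463 read 2.98, 2.71 and 2.66 in A101, 1.75, -0.25 and 0.49 in Hab, 0.40 and 0.85 in A18, and -0.70, -0.44 and -0.71 in Biq. All 11 libraries at 60 DAA sat at its lowest value, -0.89. A101 was thus above every other library at 20 DAA and Biq below every other, with accession means spanning 3.40 (F test adjusted p = 1.5e-07). It fell by 3.67 ± 0.29 in A101 (adjusted p = 1.26e-09), 1.55 ± 0.33 in Hab (adjusted p = 0.000257) and 1.51 ± 0.33 in A18 (adjusted p = 0.000448), while Biq changed by -0.27 ± 0.29 (adjusted p = 0.406). The SEs pool the spread of all groups, and the 60 DAA libraries of this gene had none, so the wide spread in Hab is understated. LOC107870623 had the reverse timing. At 20 DAA all libraries lay between -1.10 and -0.68, and at 60 DAA it read 4.11, 3.94 and 4.13 in Biq, 0.96 and 1.00 in Hab, -0.64, -0.03 and -0.34 in A101, and -0.66, -1.10 and -0.84 in A18. It rose by 5.09 ± 0.14 in Biq (adjusted p = 1.46e-16) and by 1.84 ± 0.16 in Hab (adjusted p = 2.32e-09), and changed by 0.55 ± 0.14 in A101 (adjusted p = 0.00172) and 0.23 ± 0.16 in A18 (adjusted p = 0.202). The rise was 3.08 ± 0.15 larger in the red than in the yellow accessions (adjusted p = 2.41e-11), with Biq giving most of it.

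The 5 HOTHEAD genes split into 3 that fell and 2 that rose, all of them in all 4 accessions. HOTHEAD is an oxidoreductase that in Arabidopsis contributes to the dicarboxylic acids of cutin, and plants without it have fused flowers. The HOTHEAD-like gene LOC107853473 lay between 2.75 and 4.44 at 20 DAA and between -3.60 and -2.88 at 60 DAA. It fell by 6.62 ± 0.16 (adjusted p = 2.62e-18). HOTHEAD (LOC107866223) and the HOTHEAD-like gene LOC107861734 fell by 6.37 ± 0.13 (adjusted p = 1.78e-19) and fell by 5.45 ± 0.13 (adjusted p = 2.27e-18). The opposite course was taken by HTH (LOC107876092), also annotated HOTHEAD-like, which lay between -3.93 and -3.08 at 20 DAA and between 2.66 and 4.88 at 60 DAA. HTH rose by 7.22 ± 0.10 (adjusted p = 1.62e-21), and by 7.93 in Biq, 7.34 in Hab, 6.94 in A101 and 6.65 in A18. Of the 95 genes it had the largest rise on average. LOC107876094 rose by 3.84 ± 0.12 (adjusted p = 1.09e-16), from values between -2.26 and -1.38 to values between 1.05 and 3.20. In mature fruit both rising genes were higher in the red accessions, HTH (LOC107876092) by 1.19 ± 0.15 (adjusted p = 1.5e-06) and LOC107876094 by 1.17 ± 0.17 (adjusted p = 7.33e-06). At 60 DAA, HTH read 4.08 and 4.06 in Hab and 4.31, 4.88 and 3.89 in Biq, against 3.16, 3.18 and 3.00 in A101 and 3.26, 2.66 and 2.92 in A18. Under quantile normalization these colour differences were 0.51 for HTH and 0.74 for LOC107876094 and no longer reached the minimum difference.

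**Figure D2:**
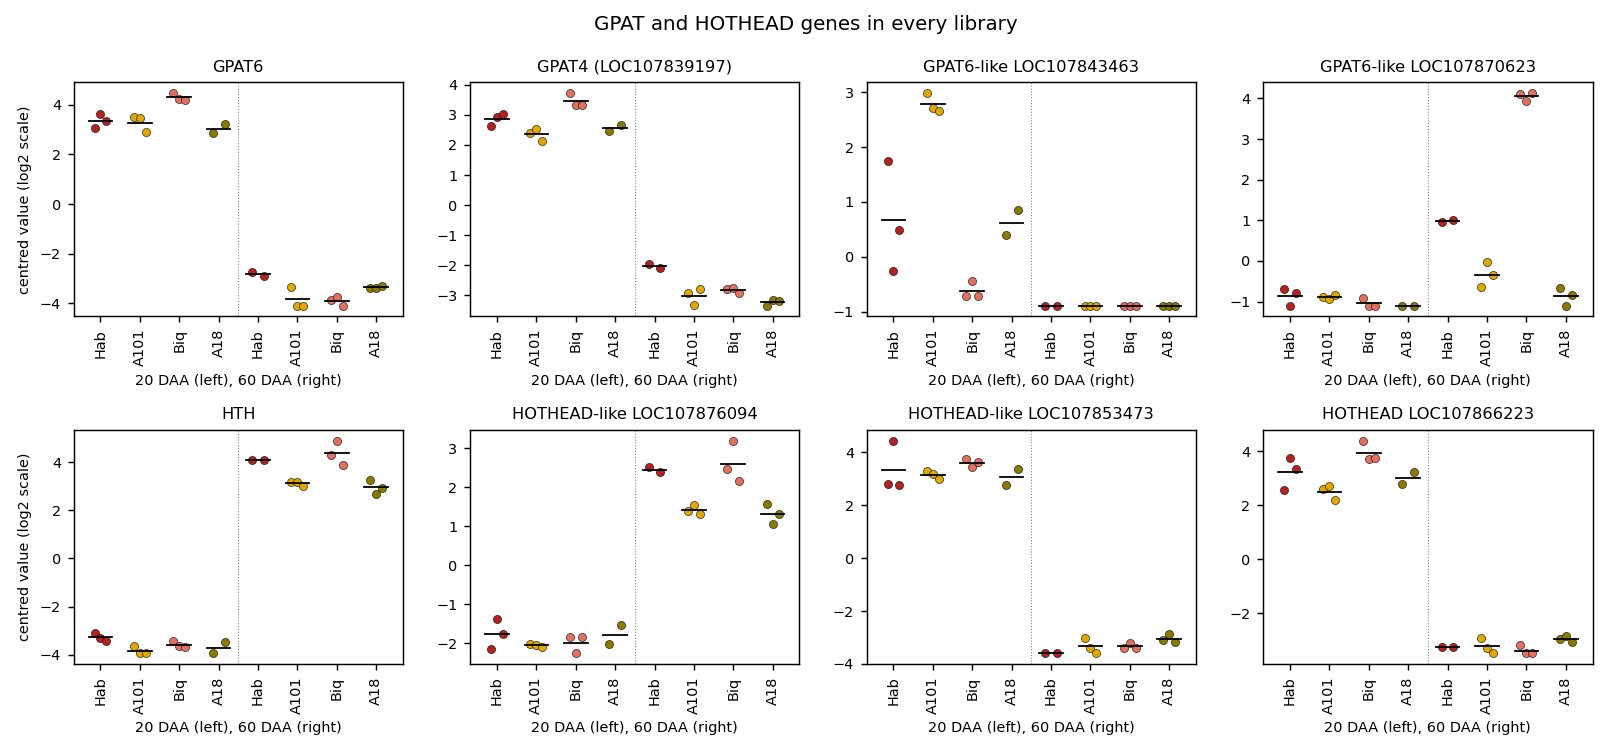
Centred expression (vertical axis, log2 scale) of 4 GPAT and 4 HOTHEAD genes in each library (points) with group means (bars), for the 4 accessions at 20 DAA left of the dotted line and at 60 DAA right of it. GPAT6 and HTH run in opposite directions, LOC107843463 differs between accessions only at 20 DAA, and LOC107870623 stands between 3.94 and 4.13 in the 3 Biq libraries at 60 DAA.

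Of the 27 GDSL esterase genes, 20 fell, 1 rose and 6 were not called, with a median change of -1.92. GDSL enzymes are a large group of esterases, of which a few polymerise cutin and most have no known substrate. GDL79 (LOC107850775, GDSL esterase/lipase At5g33370-like) had the largest fall of all 95 genes. It lay between 3.64 and 5.39 at 20 DAA and between -5.15 and -3.73 at 60 DAA, and fell by 9.02 ± 0.14 (adjusted p = 4.59e-21). The change was -10.03 in Biq, -9.57 in Hab, -8.61 in A101 and -7.87 in A18. GDSL esterase At3g48460 (LOC107862646) and the APG-like gene LOC107861774 followed with changes of -6.32 ± 0.10 (adjusted p = 7.89e-21) and -5.66 ± 0.08 (adjusted p = 1.21e-21). At the other end, At4g16230-like (LOC107869707) was the GDSL gene that rose, by 1.43 ± 0.08 (adjusted p = 2.67e-12). All its 20 DAA libraries sat at its lowest value, -0.75, and at 60 DAA it read -0.10 and -0.13 in Hab, 0.30, 0.72 and 0.35 in A101, 1.25, 1.01 and 1.22 in Biq, and 0.91, 1.74 and 0.98 in A18. The CPRD49-like genes LOC107842587 and LOC107845898 had average changes nearest 0, -0.15 ± 0.06 (adjusted p = 0.0212) and -0.08 ± 0.05 (adjusted p = 0.109). LOC107845898 nevertheless separated Biq from the rest at both stages: at 20 DAA Biq read -0.838, -0.997 and -0.931 while the other libraries lay between 0.25 and 0.56, and at 60 DAA Biq read -1.10, -1.20 and -1.23 while the others lay between 0.10 and 0.76. The F tests across accessions gave adjusted p = 1.98e-10 at 20 DAA and 1.11e-11 at 60 DAA.

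At5g45910-like (LOC107868365) was a GDSL gene whose level at 20 DAA followed neither colour nor pungency alone. It read 3.40, 2.67 and 2.82 in Biq, 0.79, 2.72 and 2.04 in Hab, 1.62 and 2.12 in A18, and 0.45, 0.64 and 0.27 in A101, and at 60 DAA 9 of the 11 libraries shared its lowest value. A101 lay below every other library at 20 DAA. It fell by 3.57 ± 0.16 on average (adjusted p = 6.48e-14), with changes from -2.21 in A101 to -4.79 in Biq.

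Among the 13 KCS genes, which code for the condensing enzyme of fatty acid elongation, 10 fell, 1 rose and 2 were not called, and the median change was -2.32. KCS10 (LOC107839042), in Arabidopsis the FIDDLEHEAD enzyme that keeps organs from fusing, lay between 2.29 and 3.87 at 20 DAA and between -3.37 and -2.52 at 60 DAA. It fell by 6.01 ± 0.08 (adjusted p = 3.71e-22). KCS5-like (LOC107860042) fell by 5.58 ± 0.08 (adjusted p = 2.46e-21) and KCS20-like (LOC107864657) by 3.11 ± 0.13 (adjusted p = 1.44e-14). At 60 DAA, KCS20-like LOC107864657 read -0.73, -0.78 and -0.69 in Biq and -1.04 and -1.09 in Hab, and between -2.69 and -1.85 in the yellow accessions. That difference of 1.30 ± 0.18 between the colours passed the test (adjusted p = 6.3e-06). The 3 genes with the name KCS11-like went 3 ways: LOC107839065 rose by 1.94 ± 0.07 (adjusted p = 2.33e-15), LOC107868466 fell by 1.43 (adjusted p = 6.8e-13) and LOC107872813 changed by -0.25 ± 0.08 (adjusted p = 0.0117). LOC107839065 rose almost evenly, by 1.86 in A18, 1.87 in Biq, 1.96 in A101 and 2.05 in Hab. KCS4 (LOC107866995) changed by 0.93 ± 0.10 (adjusted p = 3.01e-08), just under the minimum difference, and passed it under quantile normalization at 1.10.

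Of the 10 CER genes, 8 fell in all 4 accessions, 1 rose on average and 1 was not called, and the median change was -2.88. CER26-like (LOC107864332), related to the Arabidopsis proteins that let elongation pass to the longest chains, lay between 2.26 and 3.79 at 20 DAA and between -3.40 and -2.81 at 60 DAA. It fell by 6.15 ± 0.08 (adjusted p = 3.71e-22). The falling CER1-like genes, named after the alkane-forming enzyme, were led by LOC107868261, which fell by 5.10 ± 0.16 (adjusted p = 1.41e-16), and LOC107844046, which fell by 4.40 ± 0.15 (adjusted p = 5.14e-16). LOC107844046 read 3.84, 2.37 and 2.51 in Hab and 3.29, 2.95 and 2.91 in A101 at 20 DAA, against 1.62, 1.65 and 1.65 in Biq and 0.58 and 1.61 in A18. The pungent accessions were thus higher without overlap, by 1.61 ± 0.21 (adjusted p = 1.18e-05). The CER3 gene LOC107854254 and the CER3-like gene LOC107862071 fell by 1.44 (adjusted p = 3e-13) and 3.18 (adjusted p = 2.8e-14).

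The CER1-like genes LOC107851087 and LOC107854358 did not follow the others. LOC107851087 rose by 1.31 ± 0.19 on average (adjusted p = 2.44e-06), with 1.76 in Hab, 1.67 in A18 and 1.07 in A101, and in Biq it changed by 0.74 ± 0.36 (adjusted p = 0.0638). Without A101 library b at 20 DAA or library a at 60 DAA it changed by 0.97 or 0.86 in A101 and was not called there, and without Biq library a at 20 DAA it changed by 1.20 in Biq and was called. LOC107854358 was the only one of the 95 genes called in opposite directions in different accessions (1.05%, against 0.479% of all genes). It read 0.81, -0.26 and -0.20 in Hab, -0.02, -0.03 and 0.16 in A101, -0.14, 0.01 and 0.15 in Biq, and -0.37 and -0.58 in A18 at 20 DAA. At 60 DAA it read -0.86 and -1.04 in Hab, -0.83, -1.04 and -1.04 in A101, -0.04, 0.01 and -0.06 in Biq, and 1.73, 1.51 and 2.14 in A18. It fell by 1.06 ± 0.23 in Hab (adjusted p = 0.000326) and by 1.01 ± 0.21 in A101 (adjusted p = 0.000243), changed by -0.04 ± 0.21 in Biq (adjusted p = 0.862) and rose by 2.27 ± 0.23 in A18 (adjusted p = 4.47e-08). Both pungent accessions fell, and of the non-pungent ones only A18 rose. The falls lay at the minimum difference: under quantile normalization they were -0.68 in Hab and -0.90 in A101 and were not called, without Hab library a at 20 DAA or library b at 60 DAA the change in Hab was -0.72 or -0.98, and without A101 library c at 20 DAA or library b or c at 60 DAA the change in A101 was between -0.97 and -0.94.

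The FAR genes, named after enzymes that make wax and suberin alcohols, numbered 3. FAR4 (LOC107839938) fell by 3.65 ± 0.23 (adjusted p = 8.93e-12) and FAR3-like LOC107848361 by 2.21 ± 0.23 (adjusted p = 2.67e-08), the latter by 1.34 in A18, where without library b at 20 DAA the change was -1.16 (adjusted p = 0.12). Hab was the exception in mature fruit for FAR4, with -0.45 and -0.49 at 60 DAA against values between -2.55 and -1.82 in the other accessions. At 20 DAA the Hab libraries spread widely, at 3.41, 0.38 and 1.62 for FAR4 and 2.81, -0.09 and 1.08 for LOC107848361, and the same library was highest for both genes. Over the 95 genes the median SD within Hab at 20 DAA was 0.35, against 0.15 in A101, 0.16 in Biq and 0.187 in A18. The other FAR3-like gene, LOC107868096, fell only in Hab, by 1.33 ± 0.37 (adjusted p = 0.00308). It read 0.38, -1.79 and 0.03 in Hab at 20 DAA and -1.79 in both Hab libraries at 60 DAA, so 1 of the 3 libraries at 20 DAA was already at its lowest value. The change in Hab was -0.91 and not called under quantile normalization, and also -0.91 without Hab library a at 20 DAA. Fitted on the Hab libraries alone, neither LOC107868096 (-1.33, adjusted p = 0.111) nor FAR4 (-2.27, adjusted p = 0.051) was called in Hab. In the other accessions it changed by 0.79 ± 0.33 in A101 (adjusted p = 0.0415), 0.74 ± 0.37 in A18 (adjusted p = 0.0883) and 0.17 ± 0.33 in Biq (adjusted p = 0.661).

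**Figure D3:**
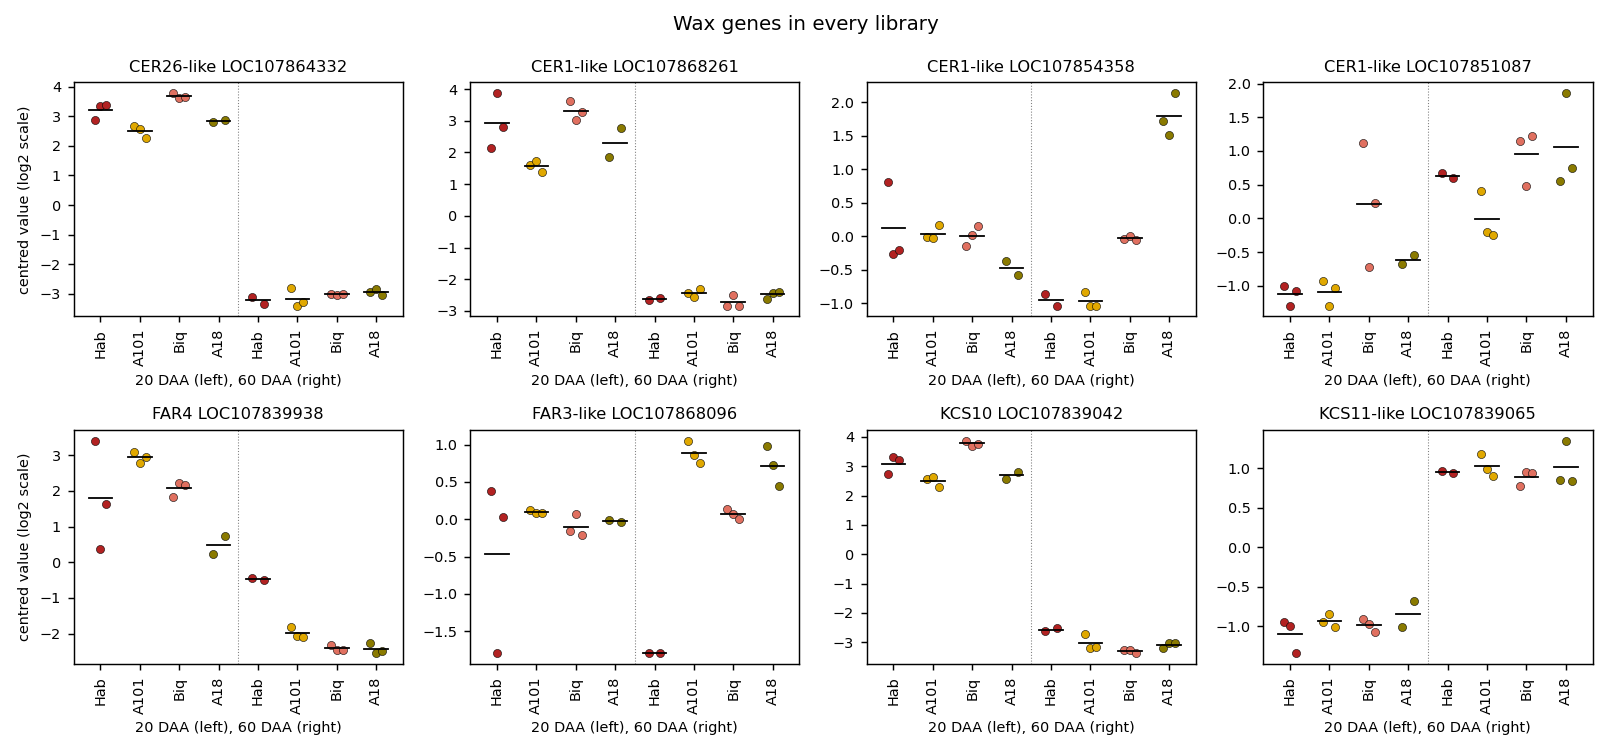
Centred expression (vertical axis, log2 scale) of 4 CER, 2 FAR and 2 KCS genes in each library (points) with group means (bars), for the 4 accessions at 20 DAA left of the dotted line and at 60 DAA right of it. CER26-like and KCS10 fall without overlap, KCS11-like LOC107839065 rises to between 0.78 and 1.35, and CER1-like LOC107854358 ends between 1.51 and 2.14 in A18 and at -0.83 or lower in Hab and A101.

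The LTP family moved in both directions. Of 25 genes, 16 fell, 6 rose and 3 were not called, and the median change was -2.17. LTPs are small secreted proteins with a lipid-binding cavity, and in Arabidopsis forms anchored to the membrane by glycosylphosphatidylinositol take part in wax export. The falls were led by LTPG1 (LOC107845895), LTPG2 (LOC107843400) and LTPL1 (LOC107859334). LTPG1 lay between 2.54 and 5.00 at 20 DAA and between -4.01 and -3.24 at 60 DAA, and fell by 7.37 ± 0.11 (adjusted p = 1.59e-21). LTPG2 lay between 2.95 and 4.60 and then between -3.94 and -3.38, and fell by 7.37 ± 0.16 (adjusted p = 9.19e-19). LTPL1 lay between 3.17 and 3.66 and then between -3.81 and -2.72, and fell by 6.83 ± 0.12 (adjusted p = 4.57e-20). The change ran from -6.66 in Biq to -7.06 in Hab. The genes annotated as GPI-anchored, LOC107848539, LOC107875276 and LOC107852640, fell by 4.24, 4.31 and 1.68 (adjusted p = 1.8e-17, 7.2e-17 and 2.7e-15). The LTP of the name DIR1 (LOC107857159), in Arabidopsis a protein of systemic resistance, fell by 1.93 (adjusted p = 2.1e-10). LTP 4.1 (LOC107867205) and the glycolipid transfer protein (LOC107875305) changed by -0.05 ± 0.06 (adjusted p = 0.436) and -0.44 ± 0.06 (adjusted p = 1.08e-06).

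The falling LTP genes LOC107845941, LOC107845937 and LOC107839043 differed strongly between accessions in immature fruit. LTP2-like LOC107845941 read 3.75, 2.85 and 3.99 in Hab, 2.34, 2.06 and 2.51 in A101 and 3.44 and 4.55 in A18 at 20 DAA, against -2.52, -2.61 and -2.62 in Biq. Biq stayed low at 60 DAA, at -2.93, -2.93 and -2.75. The accession means at 20 DAA spanned 6.58, the widest span of the 95 genes (F test adjusted p = 1.06e-12). It fell by 5.84 ± 0.31 in A18 (adjusted p = 3.47e-12), 3.65 ± 0.31 in Hab (adjusted p = 2.41e-09) and 3.42 ± 0.28 in A101 (adjusted p = 1.52e-09), and changed by -0.28 ± 0.28 in Biq (adjusted p = 0.354). LTP2-like LOC107845937 was also lowest in Biq at 20 DAA, with 1.77, 0.23 and 0.45 against values between 2.78 and 4.39 elsewhere (F test adjusted p = 4.96e-08). It still fell in Biq, by 3.75 ± 0.28 (adjusted p = 4e-10). LTP4-like LOC107839043 divided the colours at 20 DAA: it read 3.08, 2.89 and 3.30 in A101 and 2.46 and 2.80 in A18, against 0.66, 0.23 and 1.03 in Hab and 1.18, 1.10 and 1.56 in Biq. The difference, red minus yellow, was -1.90 ± 0.12 (adjusted p = 3.22e-10), and 10 of the 11 libraries at 60 DAA were at the lowest value.

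The largest rise in any single accession was that of EARLI1 (LOC107867449). This gene is named after an Arabidopsis hybrid proline-rich protein of the lipid-transfer fold. At 20 DAA it read -2.95, -2.71 and -2.95 in Hab, -2.73, -2.71 and -2.62 in A101, -2.40, -2.16 and -2.23 in Biq, and -1.83 and -2.14 in A18. At 60 DAA it read 7.41 and 7.50 in Hab, 4.89, 4.80 and 4.64 in A101, 0.89, 0.38 and 0.85 in Biq, and -1.37, -1.16 and -1.39 in A18. No library of an accession overlapped with that of another at 60 DAA. EARLI1 rose by 10.32 ± 0.15 in Hab (adjusted p = 8.81e-20), 7.46 ± 0.13 in A101 (adjusted p = 1.17e-18) and 2.97 ± 0.13 in Biq (adjusted p = 1.45e-13), and changed by 0.68 ± 0.15 in A18 (adjusted p = 0.000417), where quantile normalization gave 1.20 and a call. The rise was 7.07 ± 0.14 larger in the pungent accessions (adjusted p = 3.57e-17) and 2.57 ± 0.14 larger in the red ones (adjusted p = 8.6e-11). The accession means at 60 DAA spanned 8.76 (F test adjusted p = 1.82e-18).

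The other rising LTPs included all 4 genes with the name LTP A-like. They share this name, and how the authors' counting divided reads between near-identical copies was not tested. LOC107857210 rose by 2.20 ± 0.18 on average (adjusted p = 5.15e-10). At 60 DAA it read 3.38, 4.76 and 3.87 in Biq, 0.18, 1.64 and -0.22 in A101, -0.36 and -0.47 in Hab, and -0.11, 0.15 and -0.03 in A18, and 10 of the 11 libraries at 20 DAA were at its lowest value, -1.18. LOC107845182 rose by 1.6 ± 0.14 on average (adjusted p = 2.44e-09) and read 1.54, 2.53 and 0.67 in A101, 1.67, 1.61 and 2.12 in Biq and 0.62 and 0.59 in Hab at 60 DAA. In A18 all its libraries sat at the lowest value, -0.81, at both stages. LOC107845165 rose by 3.42 in Biq and 1.51 in A101, and LOC107845193 by 2.30 in Biq and 1.70 in A101. At 60 DAA the Biq libraries read 2.18, 3.04 and 2.69 for LOC107845165 and 2.38, -0.27 and 3.18 for LOC107845193, so for the latter 1 Biq library lay below every A101 library. All 4 genes rose in A101 and Biq. Their changes in Hab and A18 lay between 0.00 and 1.41, and LOC107845182 was called in Hab (1.41) and LOC107857210 in A18 (1.18). The stage change of Hab and A18 minus that of Biq and A101 was -2.51 ± 0.35 for LOC107857210 (adjusted p = 5.04e-05). The sixth riser, LOC107840021, of the name LTP-like protein At2g13820, rose by 1.28 (adjusted p = 3e-11).

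A seed storage gene moved beside the LTP A-like genes. Vicilin C72-like (LOC107854665) sat at or near its lowest value, -0.90, in all libraries at 20 DAA, and at 60 DAA read 2.15, 2.74 and 1.08 in A101, 2.17, 0.32 and 1.65 in Biq, 0.82, -0.90 and 1.01 in A18, and -0.73 and -0.90 in Hab. In A101 its order of the libraries at 60 DAA was the same as for every LTP A-like gene. In Biq its order was the reverse of that for LOC107857210 and LOC107845165. LOC107845182 and LOC107845193 were lowest in the same Biq library as vicilin C72-like. Of the 3 seed storage genes on the list this was the only riser, and the averages of their centred values at 60 DAA lay between 0.58 and 1.27 in A101, -0.20 and 0.57 in Biq, -0.33 and 0.76 in A18, and -0.57 and -0.41 in Hab. The part of seed tissue in the rise of these LTPs was not tested.

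**Figure D4:**
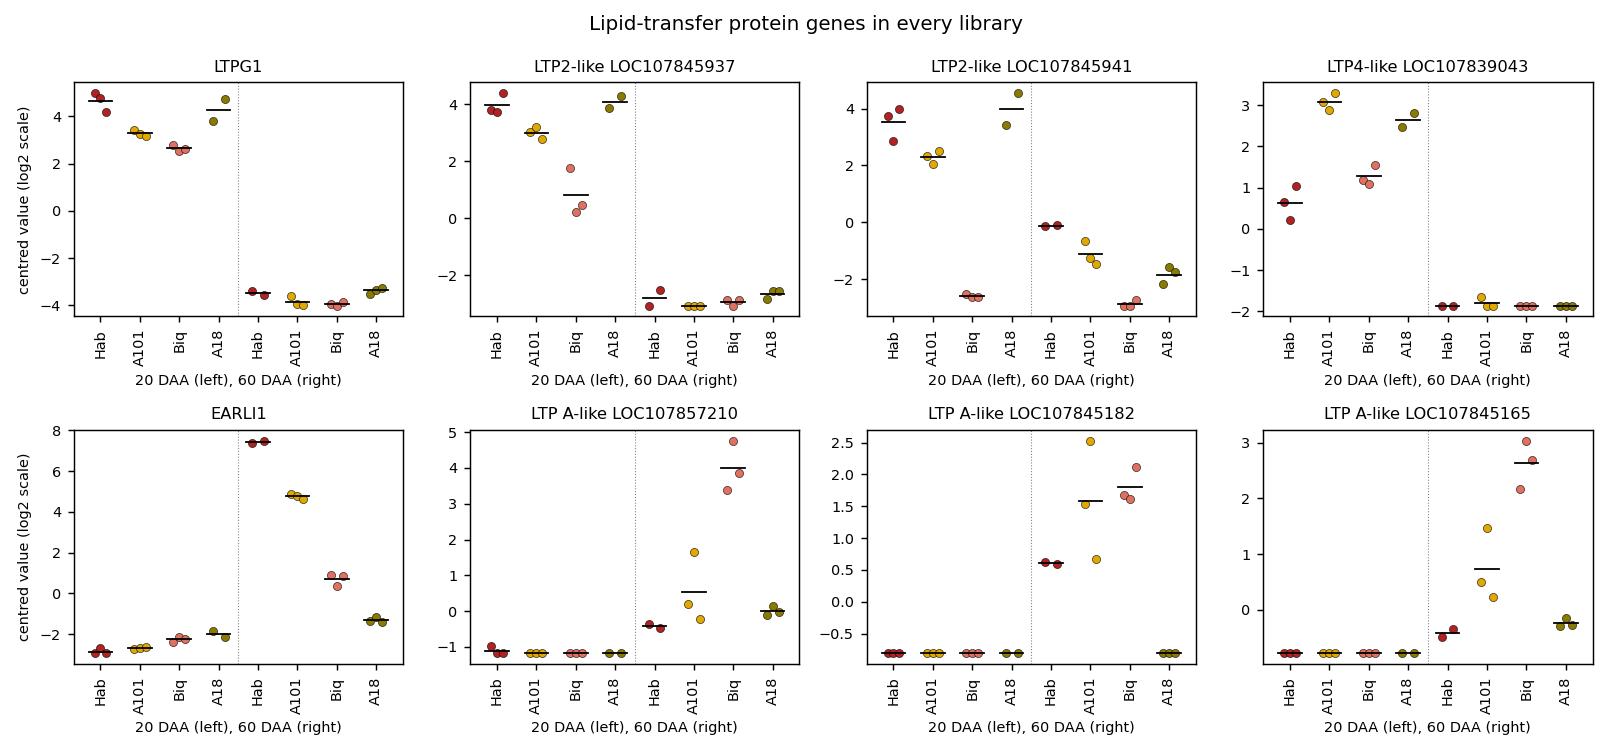
Centred expression (vertical axis, log2 scale) of 8 LTP genes in each library (points) with group means (bars), for the 4 accessions at 20 DAA left of the dotted line and at 60 DAA right of it. LOC107845941 lies between -2.62 and -2.52 in Biq at 20 DAA while the other accessions lie at 2.06 or higher, EARLI1 separates all 4 accessions at 60 DAA, and the LTP A-like genes are highest in Biq or A101.

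Of the 5 LPAATs, which make phosphatidic acid for membrane and storage lipids, 2 fell, 1 rose and 2 were not called. LPAAT2-like LOC107843925 rose by 2.07 ± 0.07 (adjusted p = 1.09e-15), from values between -1.50 and -0.68 to values between 0.40 and 1.62. LPAAT5 (LOC107840389) and LPAAT4 (LOC107867060) fell by 1.30 ± 0.06 (adjusted p = 4.04e-14) and 1.07 ± 0.07 (adjusted p = 1.86e-11). The second LPAAT2-like gene LOC107863748 changed by 0.44 ± 0.07 (adjusted p = 3.88e-06) and the chloroplast LPAAT1 (LOC107877611) by 0.95 ± 0.06 (adjusted p = 2.52e-11). Scaling decided 2 of these calls: under quantile normalization LOC107867060 changed by -0.89 and was not called, and LOC107877611 by 1.19 and was called.

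Genes that work with these families but carry other names were read from lists of the pathway. All 4 P450s that hydroxylate cutin monomers fell, with cytochrome P450 77A2 (LOC107871386) at -6.73 ± 0.10 (adjusted p = 2.26e-21) and P450 86A22 (LOC107865299) at -6.36 ± 0.08 (adjusted p = 3.78e-22). The median of the list was -6.25, against -0.08 over all genes. Of 4 BAHD acyltransferases 3 fell, with DCR (LOC107863241), needed for cutin in Arabidopsis, at -6.89 ± 0.09 (adjusted p = 6.93e-22) and omega-hydroxypalmitate O-feruloyl transferase (LOC107850816) at -6.15 ± 0.10 (adjusted p = 1.35e-20). Of 6 ABCG exporters, which carry wax and cutin precursors out of the cell, 5 fell, led by ABCG32-like (LOC107854459) at -6.08 ± 0.10 (adjusted p = 6.33e-21) and ABCG11-like (LOC107840060) at -4.72 ± 0.17 (adjusted p = 1.31e-15). Both WIN1 transcription factors, activators of cutin and wax genes in Arabidopsis, fell, LOC107840776 by 3.64 ± 0.09 (adjusted p = 2.84e-18) and LOC107861952 by 1.95 ± 0.15 (adjusted p = 3.72e-10).

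Lists with broader roles held genes that fell and genes that rose. Of 12 long chain acyl-CoA synthetases 3 fell and 2 rose, shares near those over all genes (21.5% and 13.2%), with LACS2-like LOC107840373 at -5.21 ± 0.07 (adjusted p = 1.38e-21) and the peroxisomal LACS6-like gene LOC107864092 at 2.40 ± 0.08 (adjusted p = 4.28e-16). Of 7 partners of the elongase 4 fell and 1 rose, with PASTICCINO 2 (LOC107870144) at -3.43 ± 0.06 (adjusted p = 1.77e-20) and an enoyl-CoA reductase-like gene (LOC107851655) at 1.43 ± 0.07 (adjusted p = 5.89e-14). Of 5 MAH1-like genes, named after the enzyme that oxidises alkanes to ketones, 3 fell and 1 rose (LOC107844663, 2.84 ± 0.12, adjusted p = 2.17e-14). Of 6 WSD1-like genes, named after a wax ester synthase, 4 fell and 2 rose (LOC107840259, 3.09 ± 0.07, adjusted p = 2.4e-18, and LOC107867045, 1.83 ± 0.07, adjusted p = 3.48e-15). No gene matched the list of cuticle hydrolases.

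**Figure D5:**
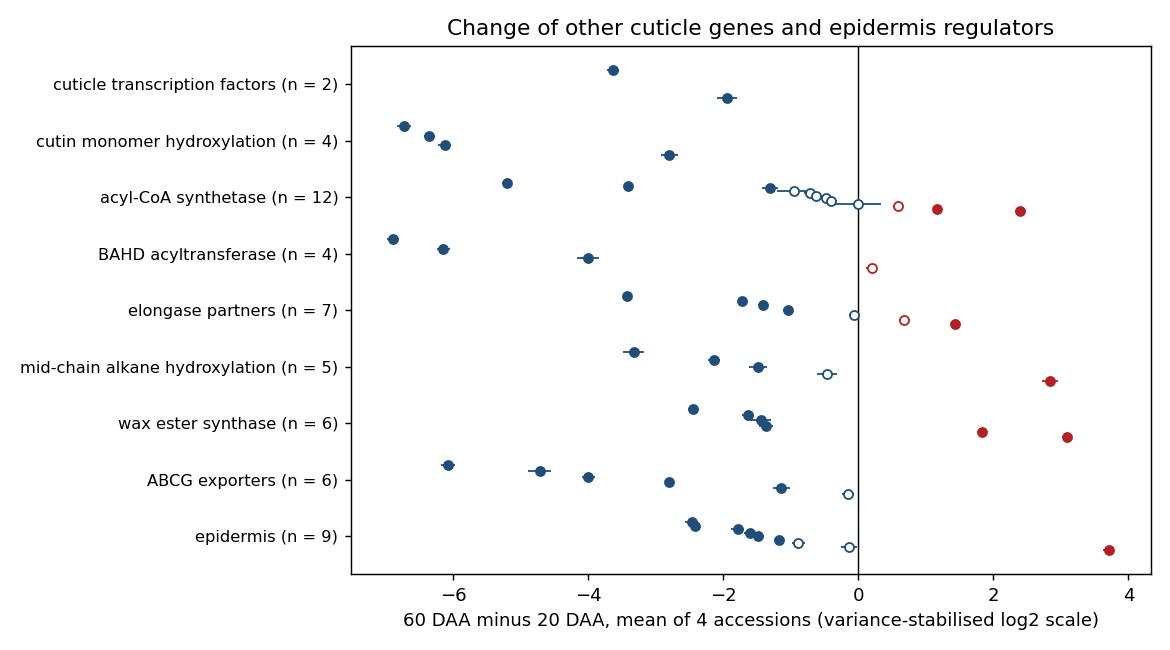
Change between 20 and 60 DAA (horizontal axis, variance-stabilised log2 scale, mean of 4 accessions, bars are SE) of genes outside the 95, by list (vertical axis). Blue points fell, red points rose and open points were not called. The 4 cutin P450s lie between -6.73 and -2.80, while acyl-CoA synthetases, elongase partners, MAH1-like and WSD1-like genes lie on both sides of 0.

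Most regulators of the epidermis on the list fell. Of 9 genes of the HD-ZIP IV class, known for regulators of the epidermis, 6 fell and 1 rose, with a median change of -1.49. MERISTEM L1 (LOC107845553) changed by -2.47 ± 0.10 (adjusted p = 4.11e-15) and GLABRA 2 (LOC107861833) by -2.42 ± 0.06 (adjusted p = 3.82e-18), while HDG1-like (LOC107849923) rose by 3.71 ± 0.08 (adjusted p = 6.89e-19). The average centred value of the 9 genes lay between 0.60 and 1.02 in Hab, 0.20 and 0.33 in A101, 0.38 and 0.53 in Biq, and 0.28 and 0.30 in A18 at 20 DAA, and between -0.65 and -0.23 over all groups at 60 DAA. ANTHOCYANINLESS 2 (LOC107873407) changed by -0.14 ± 0.12 (adjusted p = 0.276). The part of the epidermal share of the tissue in the cuticle falls was not tested.

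Accessions differed in many of these genes, with more called at 20 than at 60 DAA. The F test over the 4 accessions called 47 of the 95 genes at 20 DAA, against 15.9% of all genes, and 26 at 60 DAA, against 30.2%. Values at a gene's lowest level, for 36 genes in 60 DAA libraries only, limit the differences that can be seen at that stage. With genes at their lowest value in 3 or more libraries left out, the test called 19 of the remaining 51 genes at 20 DAA and 15 at 60 DAA. The stages then lay closer together, and the share over all genes was not taken under this filter. For the change between stages the F test called 57 of the 95 genes, against 34.2% of all genes. Of the 47 genes at 20 DAA, the highest mean was that of Biq in 18 (24.6% of all called genes), Hab in 15 (20.5%), A101 in 10 (29.7%) and A18 in 4 (25.2%). The lowest was that of A101 in 20 (19% of all called genes), A18 in 14 (20.4%), Biq in 9 (29.5%) and Hab in 4 (31.1%). Among families, 9 of 10 CER genes were called at 20 DAA, 14 of 27 GDSL genes, 12 of 25 LTPs, 5 of 13 KCSs and 0 of 5 LPAATs (limma F test, which needed a span of means of at least 1).

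Contrasts between pairs of accessions called at most 12 genes in either direction, though for several this was a larger share than over all genes. At 20 DAA the red accessions were lower in 4 genes and higher in 6, against 3.37% and 1.69% of all genes, and the pungent accessions were lower in 1 and higher in 11, against 1.47% and 1.35%. At 60 DAA the red accessions were lower in 1 and higher in 6, against 4.53% and 4.04%, and the pungent ones lower in 5 and higher in 4, against 1.84% and 1.77%. For the change between stages, red minus yellow was negative in 10 genes and positive in 8, against 4.63% and 6.38% of all genes. Pungent minus non-pungent was negative in 12 and positive in 3, against 1.8% and 1.65%, and the remaining pairing, Hab and A18 minus Biq and A101, which matches neither trait, was negative in 10 and positive in 5, against 1.91% and 1.81%. The pairing that matches neither trait thus gave as many differences, 15, as pungency, 15. With genes at their lowest value in 3 or more libraries left out, the 12 negative pungency differences became 0, and the pairing that matches neither trait gave 3 negative and 1 positive. Tested against a difference of 1, pungency gave 1 and 1, and that pairing 4 and 0. Single libraries moved several of these counts. At 20 DAA the 11 genes higher in pungent accessions became 6 without A18 library a and 6 without Hab library a, the 6 higher in red became 3 without A18 library a and 3 without Biq library a, and the 1 lower in pungent became 3 without A18 library a, Hab library b or Biq library b. For stage changes the 10 negative colour differences became 5 without Hab library b at 20 DAA, and the 3 positive pungency differences became 1 without Hab library a and 5 without A18 library a, Hab library b or Biq library b. At 60 DAA the 5 genes lower in pungent accessions became 3 without A101 library a or c.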

How the data were processed

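The authors used fastp 0.23.1 for trimming of paired-end reads and Salmon 1.6.0 for quantification on the Capsicum annuum Zunla-1 genome and transcriptome. The authors deposited variance-stabilised values from DESeq2 1.36.0 (R 4.2.0), which are on a scale close to log2 and centred per gene. The deposited table held 16922 genes in 22 libraries. Replicate numbers are missing from its column names, which give accession and stage, and libraries of a group are told apart here by letters a, b and c in column order, which pair nothing. Genome coordinates and sequences of the genes were not used here.

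A linear model with 1 mean per group was fitted to all 22 libraries with limma 3.58.1 in R 4.3.3 (empirical Bayes with 14 residual and 4.514 prior degrees of freedom), without a filter, and p-values were adjusted by Benjamini-Hochberg over all genes. Calls needed an adjusted p under 0.05 and a difference of at least 1, for F tests a span of that size between accession means. P-values and SEs rest on the spread between libraries within groups, pooled for each gene over the 8 groups. Groups at a gene's lowest value have little or no spread and lower this pooled estimate for the others. The code was tested on simulated data for the mean stage change over 16922 genes, where it recovered 100% of 50 genes changed by 1.5, 100% of 50 changed by 3, 100% of 50 changed by -3 and 0% of 50 changed by 0.5, which lie under the minimum difference.

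Named were all genes of families of up to 8 and those with a symbol from the study. In larger families these were the 3 largest rises and falls and the 2 changes nearest 0, the 3 largest colour and pungency differences each way, the 4 smallest F test p-values per stage, genes called in opposite directions, and up to 2 genes each way per pathway list. Other genes were named after their values were seen. The 95 genes and the lists were chosen with earlier results of these data known. Alternatives were a robust prior, array weights, library medians subtracted, quantile normalization, fits within 1 accession, no minimum difference, a test against a difference of 1, leaving out genes with 3 or more libraries at their lowest value, leaving out the LPAATs, and leaving out each library. Figures were drawn with matplotlib.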

Additional observations from a re-analysis of the deposited data

Results flagged for a closer look

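For 24 differences, the test of the difference itself showed that a named gene's change between 20 and 60 DAA was not the same in the accessions compared (limma, adjusted p under 0.05 and a difference of at least 1). Some genes were named for having the largest such differences, so the number 24 depends on that choice. Over all 95 genes, red minus yellow was negative in 10 and positive in 8, against 4.63% and 6.38% of all genes. Pungent minus non-pungent was negative in 12 and positive in 3, against 1.8% and 1.65%.

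Between red and yellow accessions, the change was more negative in red for GDL79 (LOC107850775, -1.56), CER1-like LOC107868261 (-1.40), FAR3-like LOC107868096 (-1.35), GDSL At5g45910-like LOC107868365 (-1.34), CER1-like LOC107854358 (-1.18) and HOTHEAD LOC107866223 (-1.05). It was more positive in red for HOTHEAD-like LOC107876094 (1.12), LTP2-like LOC107845937 (1.15), LTP A-like LOC107857210 (1.49), GPAT6-like LOC107843463 (1.68), LTP4-like LOC107839043 (1.87), EARLI1 (LOC107867449, 2.57), LTP2-like LOC107845941 (2.66) and GPAT6-like LOC107870623 (3.08). None of LOC107843463, LOC107839043, LOC107845937 and LOC107845941 rose in any accession. At 20 DAA both red accessions lay below both yellow ones for LOC107839043 (difference -1.90). For LOC107845937 (-1.15) and LOC107845941 (-2.68) Biq alone was low, with every Hab library above every A101 library, and for LOC107843463 (-1.68) A101 lay above and Biq below every other library. Some other listed genes did not split cleanly by colour. EARLI1 rose more in yellow A101 than in red Biq, and LOC107854358 fell in yellow A101 but hardly changed in red Biq. For LOC107857210 every Hab library at 60 DAA lay below every yellow library.

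Between pungent and non-pungent accessions, the change was more negative in pungent ones for CER1-like LOC107854358 (-2.15), LTP A-like LOC107857210 (-1.98), GPAT6-like LOC107843463 (-1.72), GPAT6-like LOC107870623 (-1.47), LTP2-like LOC107845937 (-1.17), CER1-like LOC107844046 (-1.04) and GDSL At4g16230-like LOC107869707 (-1.02). It was more positive for GDSL At3g48460 LOC107862646 (1.03), GDSL At5g45910-like LOC107868365 (1.24) and EARLI1 (LOC107867449, 7.07). Biq alone stood apart in some of these genes. At 60 DAA every Biq library of LOC107857210 and LOC107870623 lay above every other library, and Biq alone was low for LOC107845937 at 20 DAA.

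Several of these lay close to the minimum difference. Leaving out 1 library lost the call for 8 choices of that library for LOC107862646, 5 for LOC107866223, 4 for LOC107844046, 4 for LOC107869707, 1 for LOC107868365 (Hab library a at 20 DAA, 0.98) and 1 for LOC107876094 (Biq library b at 60 DAA, 0.98). The smallest values without a library were 0.89, -0.92, -0.78 and -0.88 for the first 4 genes, in that order. Under quantile normalization the value of LOC107876094 was 0.43 and that of LOC107844046 was -0.99. With array weights LOC107866223 was at -0.88 and LOC107862646 at 0.92, and none of these was called.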

How the results depend on the processing

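The counts over the 95 genes are given as lower and higher. Array weights, a robust prior, library medians subtracted, leaving out the LPAATs and fits within 1 accession moved no count by over 1.5 times (the calls of 2 FAR genes in Hab were lost in the fit within Hab). Single calls of named genes did move. Array weights lost 4 and gained 1, library medians subtracted lost 3 and gained 2, and quantile normalization lost 12 and gained 5. No called difference of a named gene changed its direction, and changes of sign in differences that were not called were not recorded. Over all genes the median stage change was -0.085, and 0.051 under quantile normalization, where 6 genes in place of 3 were higher in the pungent minus non-pungent stage change.

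Leaving out genes with 3 or more libraries at their lowest value kept 51 of the 95. The mean stage change then called 29 and 6, Hab 29 lower, A101 29 and 6, Biq 27 and 8, and A18 30 and 5. The stage change called 3 and 3 for red minus yellow, 0 lower for pungent minus non-pungent, and 3 and 1 for Hab and A18 minus Biq and A101. Red minus yellow called 1 and 2 at 20 DAA and 0 and 3 at 60 DAA, and pungent minus non-pungent called 0 and 3 at 20 DAA and 0 lower at 60 DAA. The F tests called 20 for stage by accession, 19 at 20 DAA and 15 at 60 DAA. Shares over all genes were not taken under this filter.

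Without a minimum difference, 17 were higher in Hab and 14 in A18. The stage change called 26 and 23 for red minus yellow, 19 and 12 for pungent minus non-pungent, and 16 and 14 for the remaining pairing. Red minus yellow called 13 and 31 at 20 DAA and 6 and 23 at 60 DAA, pungent minus non-pungent called 16 and 21 at 20 DAA and 12 and 16 at 60 DAA, and the F test at 60 DAA called 42. Tested against a difference of 1, 6 were higher in Hab and 6 in A101. The stage change called 0 and 4 for red minus yellow, 1 and 1 for pungent minus non-pungent, and 4 and 0 for the remaining pairing. Red minus yellow called 2 and 0 at 20 DAA and 0 and 2 at 60 DAA, and pungent minus non-pungent called 0 and 1 at 20 DAA and 2 and 1 at 60 DAA.

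With each library left out in turn, the stage change called 5 to 14 lower for red minus yellow and 1 to 5 higher for pungent minus non-pungent. Red minus yellow at 20 DAA called 3 to 9 higher. Pungent minus non-pungent called 1 to 3 lower and 6 to 11 higher at 20 DAA, and 3 to 5 lower at 60 DAA. No paired analysis was possible because the columns of the table used here carry no replicate numbers, and columns were not matched to replicates or to the randomised blocks of the design by their values. Read depth was not used here and the deposited values carry none, so no counting error is given, and values at a gene's lowest level limit how far a fall can be measured. Where a setting moved a count, beyond fewer genes tested or another minimum difference, the cause was not tested.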
